A study of Mus musculus with 12 samples.

Results

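Intercalated discs are the end-to-end contacts through which neighbouring heart muscle cells pull on each other and pass the electrical impulse. The 9 genes described here encode their main parts: the gap junction channel Gja1 (connexin Cx43), the scaffold Tjp1 (ZO-1), the desmosomal cadherins Dsg2 and Dsc2, the desmosomal plaque proteins Dsp (desmoplakin), Pkp2 (plakophilin 2) and Jup (plakoglobin), the adherens junction cadherin Cdh2 (N-cadherin) and the muscle intermediate filament Des (desmin). Their probes were chosen by gene symbol in the platform annotation, and the genes themselves were chosen with earlier results of these data known. Of the 9 genes, 8 had a probe, which gave 14 of the 45281 probes on the array. Dsp had none and is not analysed here. A probe counted as detected on an array when its detection p was under 0.01, and probes detected on at least 3 of the 12 arrays were tested. This left 12 probes of 6 member genes (Gja1, Tjp1, Dsg2, Pkp2, Cdh2 and Des) among 15118 probes of 8746 genes. The single probes of Dsc2 and Jup were detected on 0 of 12 arrays.

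RNA came from left ventricular heart muscle cells isolated from adult C57Bl6/J males labelled as 8 weeks old. As pups of 10 days the mice had received AAV9, an adeno-associated virus that infects heart muscle well, carrying a scrambled short hairpin RNA (shControl) or hairpin #1 against Uhrf1 (shUhrf1), so every group carried virus and a hairpin. Surgery followed 2 months later and was either a sham operation or transverse aortic constriction (TAC), which narrows the aorta and makes the ventricle pump against higher pressure. Cells were studied 1 week after it. The 4 groups, sham shControl, TAC shControl, sham shUhrf1 and TAC shUhrf1, held 3 arrays each. A single hairpin sequence was used, and the promoter that drove it is not given in the sources used here. Whether the arrays within a group represent different animals is not stated, so the spread behind the p-values may be technical.

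In the heart, gap junction channels carry current from cell to cell, while desmosomes and adherens junctions anchor intermediate filaments and actin at the disc. Desmin ties the desmosomes to the Z-discs of the contractile apparatus, and Tjp1 binds the tail of Cx43 at the edge of the gap junction plaque. Inherited loss of desmosomal proteins, Pkp2 among them, causes arrhythmogenic cardiomyopathy, and the amount and placement of Cx43 change in hypertrophied hearts. Uhrf1, the target of the hairpin, binds hemimethylated CpG sites and recruits the maintenance DNA methyltransferase Dnmt1.

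Because Uhrf1 acts at CpG sites, the 250 bases upstream of the start of Des, Gja1 and Tjp1 are shown. These 3 genes were chosen after their values were seen. Des and Gja1 varied together over the 12 arrays, and Tjp1 read higher with the Uhrf1 hairpin, passing only when averaged over both surgeries. Whether CpG sites have a part in these values was not tested. The sequences are those of RefSeq for build GRCm38.p6, at chr1:75360042-75360291 (plus strand) for Des, chr10:56377050-56377299 (plus strand) for Gja1 and chr7:65371245-65371494 (minus strand) for Tjp1. They run 5′ to 3′ and end at the last base before the annotated start, and capitals mark CpG dinucleotides.
Des: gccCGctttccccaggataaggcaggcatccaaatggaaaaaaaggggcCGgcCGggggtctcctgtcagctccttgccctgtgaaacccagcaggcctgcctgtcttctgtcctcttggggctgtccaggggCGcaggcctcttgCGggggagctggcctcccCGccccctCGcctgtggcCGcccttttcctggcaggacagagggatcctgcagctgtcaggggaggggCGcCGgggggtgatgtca
Gja1: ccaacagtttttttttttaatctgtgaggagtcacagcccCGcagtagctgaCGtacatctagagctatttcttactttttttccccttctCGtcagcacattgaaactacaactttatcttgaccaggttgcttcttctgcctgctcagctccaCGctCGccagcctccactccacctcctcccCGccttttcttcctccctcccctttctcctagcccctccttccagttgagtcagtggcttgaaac
Tjp1: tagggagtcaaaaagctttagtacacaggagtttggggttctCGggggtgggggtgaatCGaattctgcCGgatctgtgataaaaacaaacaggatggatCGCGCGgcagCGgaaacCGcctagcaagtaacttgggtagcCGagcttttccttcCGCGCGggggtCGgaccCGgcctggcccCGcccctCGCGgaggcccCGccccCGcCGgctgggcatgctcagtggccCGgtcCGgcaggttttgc

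The window of Tjp1 held 22 CpG dinucleotides, and 14.8% of the 32851 upstream windows of the same length in the table held at least as many. Those of Des and Gja1 held 10 and 6, counts reached by 37.8% and 50.4% of windows. The G and C content was 67.2% for Des, 50% for Gja1 and 63.2% for Tjp1. Both strands were searched for short motifs. The GC box GGGCGG matched at 2 places for Des and 2 for Tjp1, a number reached by 16.7% of windows. The AP-1 motif TGANTCA matched once for Gja1, starting 19 bases before the start, and 6.7% of windows held it. The E-box CANNTG matched at 2 places for Des and 1 for Gja1, the latter overlapping the AP-1 match, and 66.2% of windows held at least 1. The letters of the M-CAT element CATTCC, the TATA box TATAAA, the CArG box and the MEF2 site were not in these windows. Upstream windows of 5 of the 9 genes were in the table. These matches describe the sequence only, and methylation was not measured.

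Between 12309 and 14908 probes were detected per array, and arrays of one group correlated at 0.980 to 0.987 over the tested probes. The highest uncorrected intensity of an array ran from 28639 to 33280 with shControl and from 36224 to 39770 with shUhrf1. A technical difference that follows the hairpin was not tested, and it cannot be told apart from an effect of the hairpin. The targeted gene was checked at its brighter probe, where the log2 intensity of Uhrf1 with shControl was 4.88 ± 0.11 in sham and 6.71 ± 0.51 after TAC, and with shUhrf1 it was 4.54 ± 0.18 and 5.36 ± 0.69 (SD, n = 3 arrays). It was not detected on any sham array, so the hairpin's effect can be read only after TAC, where it was -1.35 ± 0.30 on the log2 scale, shUhrf1 minus shControl (SE, limma adjusted p = 0.0355). TAC against sham called 1001 genes higher and 653 lower with shControl, a split that became 1200 and 72 when arrays were scaled to their medians instead of by quantiles. The 11 measured cardiomyocyte markers were detected on every array, and 0 of the 11 passed in either TAC comparison. Markers of other heart cells moved with surgery. Of 11 tested fibroblast markers, 11 were higher after TAC with shControl and 6 with shUhrf1, and of 11 tested endothelial markers 9 and 1 were. Macrophage markers were higher for 4 of 9 in both comparisons, and smooth muscle and pericyte markers for 2 of 6 and 0 of 6. Of the epicardial and epithelial markers, 3 of 8 were tested (Upk3b, Krt18 and Cdh1). Krt18, an epithelial keratin detected on 0 sham arrays, on 2 TAC shControl arrays and on 3 TAC shUhrf1 arrays, passed as higher after TAC with both hairpins (limma adjusted p = 0.0299 and 0.0199). Cdh1 (E-cadherin) was lower after TAC with shControl (-0.61, adjusted p = 0.0226). The array sham shUhrf1 2 stood apart, its endothelial and macrophage markers with a mean deviation of -1.20 and -1.49 from each gene's mean over all arrays on the log2 scale.

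**Figure D1:**
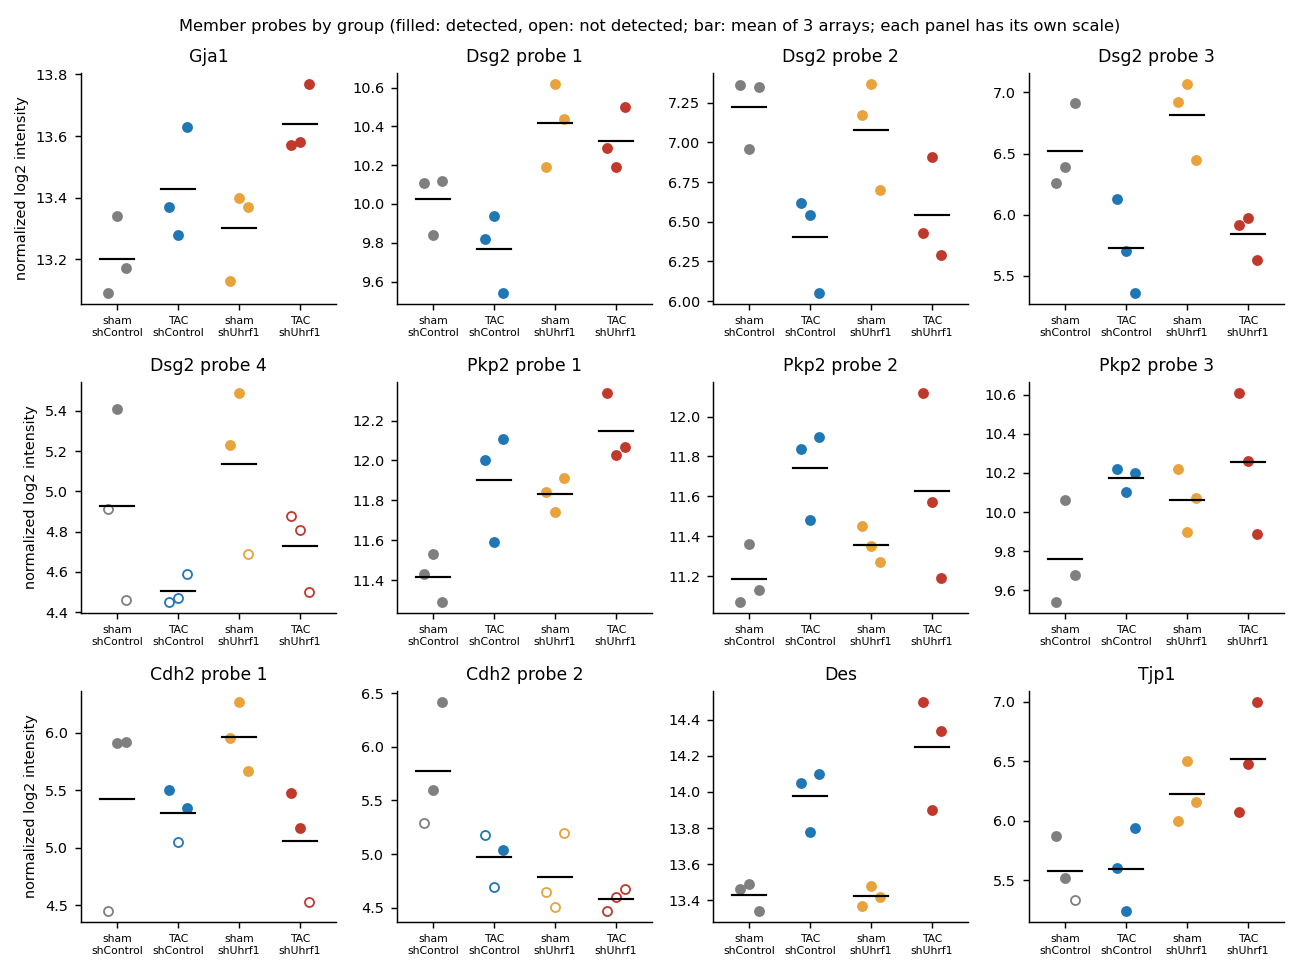
Normalized log2 intensity (y axis, 1 scale per panel) of the 12 tested member probes on each array, by group (x axis). Filled points are arrays on which the probe was detected, open points arrays on which it was not, and bars are means of 3 arrays. For Des all 3 TAC arrays lie above all 3 sham arrays with either hairpin.

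Des (desmin), the filament that links desmosomes to the contractile lattice, rose after TAC with either hairpin. Its normalized log2 intensities were 13.46, 13.49 and 13.34 in sham shControl and 14.05, 13.78 and 14.10 in TAC shControl. With the Uhrf1 hairpin they were 13.37, 13.48 and 13.42 in sham and 14.50, 13.90 and 14.34 after TAC. All TAC arrays were above all sham arrays of the same hairpin, as was the case for the arrays of 38.4% of genes with shControl and 28.8% with shUhrf1, counting separation in either direction. The same shares apply to every later statement that surgery groups did not overlap. The log2 difference was 0.54 ± 0.16 (SE, limma adjusted p = 0.0345) with shControl and 0.82 ± 0.16 (adjusted p = 0.0145) with shUhrf1. The difference between these responses was 0.28 ± 0.23 (adjusted p = 0.746), with an interval from -0.22 to 0.77, so a larger response with the Uhrf1 hairpin was not shown. The hairpin itself made a difference of -0.01 in sham (interval -0.36 to 0.34) and 0.27 after TAC (interval -0.08 to 0.62), neither past the threshold (adjusted p = 0.991 and 0.388).

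The size of the Des response with shControl depended on how arrays were scaled. It was 0.38 (adjusted p = 0.316) with median scaling and 0.10 (adjusted p = 0.691) when arrays were scaled to the probes detected on all of them, whereas with shUhrf1 the same scalings gave 1.08 and 0.57 and kept the call. With shControl the call was also lost without sham array 1, 2 or 3 (adjusted p = 0.0691, 0.0591 and 0.109) and without TAC array 1 or 3 (0.0874 and 0.121), and with no filter on dim probes (0.0582). With shUhrf1 it was lost without sham array 2 (0.0525) and without TAC array 1 or 3 (0.0569 and 0.0676). Averaged over both hairpins, a comparison added after the data were seen, desmin was 0.68 ± 0.11 higher after TAC (limma adjusted p = 0.00126). That value ranged from 0.33 to 0.77 and stayed past the threshold under every alternative run.

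**Figure D2:**
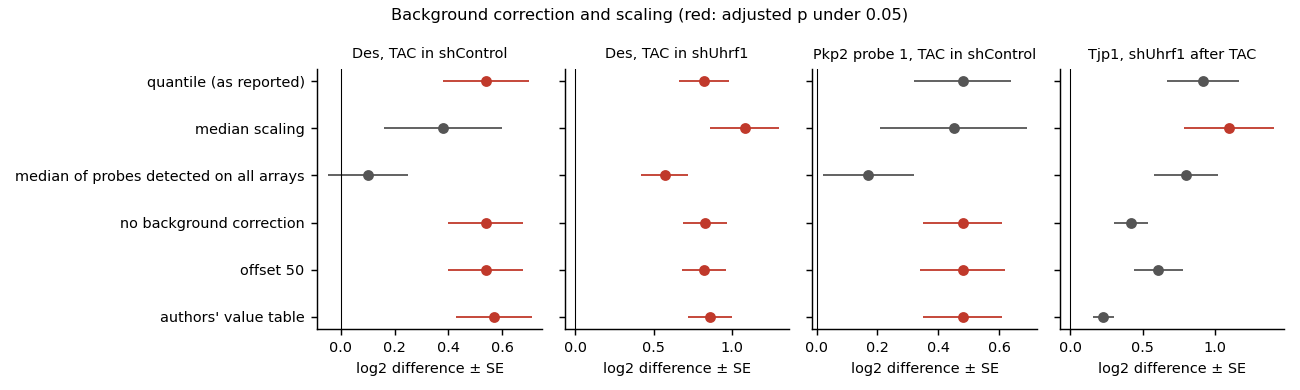
Log2 difference ± SE (x axis) under 6 ways of correcting and scaling the arrays (y axis) for Des after TAC with each hairpin, Pkp2 probe 1 after TAC with shControl, and Tjp1 with shUhrf1 against shControl after TAC. Red marks an adjusted p under 0.05. The Des response with shControl falls from 0.54 to 0.10 under scaling to probes detected on all arrays, and with shUhrf1 the lowest value is 0.57.

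Gja1 (Cx43) is the channel protein of ventricular gap junctions. Its probe read 13.09, 13.34 and 13.17 in sham shControl and 13.37, 13.28 and 13.63 in TAC shControl. With the Uhrf1 hairpin the values were 13.13, 13.40 and 13.37 in sham and 13.57, 13.58 and 13.77 after TAC. With shControl the surgery groups overlapped, and with shUhrf1 the 3 TAC arrays lay above the 3 sham arrays. Neither difference passed, at 0.23 ± 0.14 (limma adjusted p = 0.301) and 0.34 ± 0.14 (adjusted p = 0.189). Averaged over both hairpins it was 0.28 ± 0.10 (adjusted p = 0.0569). This averaged difference turned to -0.02 (adjusted p = 0.876) when arrays were scaled to the probes detected on all of them, and its lowest adjusted p over all alternatives was 0.0195, without background correction. The hairpin differences were 0.10 in sham and 0.21 after TAC, with intervals from -0.21 to 0.41 and from -0.10 to 0.52.

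Tjp1, the scaffold that binds Cx43, read higher with the Uhrf1 hairpin, a difference that passed only when averaged over both surgeries. It showed no passing change with surgery. Its dim probe, detected on 11 of 12 arrays, read 5.87, 5.52 and 5.33 in sham shControl and 5.60, 5.24 and 5.94 in TAC shControl. With the Uhrf1 hairpin it read 6.0, 6.50 and 6.16 in sham and 6.07, 6.48 and 7.0 after TAC. Every shUhrf1 array was above every shControl array of the same surgery, as was so in either direction for 20.6% of genes in sham and 23.9% after TAC. These shares also apply to later statements that hairpin groups lay apart. The hairpin difference was 0.65 ± 0.25 in sham (limma adjusted p = 0.258) and 0.92 ± 0.25 after TAC (adjusted p = 0.0639), and neither passed. Averaged over both surgeries, also a comparison added after the data were seen, it was 0.79 ± 0.17 (adjusted p = 0.0241), a ratio of 1.72. Without sham shUhrf1 array 2, the array that stood apart, the averaged difference was 0.71 (adjusted p = 0.0558). The call was also lost without sham shControl array 2 or 3 (0.77 and 0.72), TAC shControl array 2 (0.70) or TAC shUhrf1 array 3 (0.66), at adjusted p between 0.0511 and 0.0646. It was 0.19 (adjusted p = 0.0542) in the authors' value table, whose scale is compressed at low intensity, and with no filter on dim probes the adjusted p was 0.0717. TAC differences were 0.02 with shControl (interval -0.51 to 0.55) and 0.29 with shUhrf1 (interval -0.24 to 0.83).

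Pkp2 (plakophilin 2), which holds the desmosomal plaque together, was measured by 3 probes (ILMN_2927565, ILMN_2665948 and ILMN_2637122, called probes 1 to 3), all detected on every array. Probe 1, the brightest on average and the one that stands for the gene, read 11.43, 11.53 and 11.29 in sham shControl and 12, 11.59 and 12.11 in TAC shControl. With the Uhrf1 hairpin it read 11.84, 11.74 and 11.91 in sham and 12.34, 12.03 and 12.07 after TAC. At this probe the surgery groups did not overlap with either hairpin, as was so in either direction for 38.4% of genes with shControl and 28.8% with shUhrf1. The TAC difference was 0.48 ± 0.16 with shControl, just short of the threshold (limma adjusted p = 0.0514), and 0.32 ± 0.16 with shUhrf1 (adjusted p = 0.263). The averaged TAC difference was 0.40 ± 0.11 (adjusted p = 0.0195), and it was lost without TAC shControl array 3 (0.35, adjusted p = 0.0507) and under scaling to probes detected on all arrays (0.20, adjusted p = 0.161).

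Probes 2 and 3 of Pkp2 lay in the same direction, with TAC differences of 0.55 ± 0.21 and 0.42 ± 0.19 with shControl and 0.27 ± 0.21 and 0.19 ± 0.19 with shUhrf1, none past the threshold (limma adjusted p from 0.0851 to 0.594). At both probes the surgery groups overlapped with shUhrf1 and did not overlap with shControl. The 3 probes correlated at 0.74 to 0.88 over the 12 arrays, which share the study's groups. Averaged over both surgeries the hairpin difference was 0.33 ± 0.11 at probe 1 and 0.03 ± 0.15 at probe 2, and the difference of 0.30 between these probes had an exact permutation p of 0.005, the smallest that the 400 arrangements of labels within each surgery allow. It was 1 of 20 such probe differences tested, and none passed after adjustment over the 20 (smallest adjusted p = 0.1). With that smallest p, a single probe difference could not pass this adjustment on its own, so the adjusted values do not show that probes agree.

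Dsg2 (desmoglein 2) is a desmosomal cadherin whose outer part meets that of the neighbouring cell. It had 4 probes (ILMN_1221153, ILMN_1242566, ILMN_2955047 and ILMN_1215475, called probes 1 to 4). Probe 1, which stands for the gene, read 10.11, 9.84 and 10.12 in sham shControl, 9.82, 9.94 and 9.54 in TAC shControl, 10.19, 10.62 and 10.44 in sham shUhrf1 and 10.29, 10.19 and 10.50 in TAC shUhrf1. Its shUhrf1 arrays lay above its shControl arrays of the same surgery, and its surgery groups overlapped. The TAC differences were -0.26 ± 0.16 and -0.09 ± 0.16 (limma adjusted p = 0.292 and 0.782). The hairpin difference averaged over both surgeries was 0.48 ± 0.11 (adjusted p = 0.0323), made of 0.40 ± 0.16 in sham (adjusted p = 0.29) and 0.56 ± 0.16 after TAC (adjusted p = 0.0788). Leaving out sham shUhrf1 array 2 gave 0.43 (adjusted p = 0.0766). The averaged call was also lost without sham shControl array 2 or 3, TAC shControl array 3, sham shUhrf1 array 3 or TAC shUhrf1 array 3, with values of 0.42 to 0.50. It was 0.44 (adjusted p = 0.0633) under scaling to probes detected on all arrays and 0.23 (adjusted p = 0.24) with the mean of all 4 probes, and with no filter on dim probes its adjusted p was 0.0522. At probes 2, 3 and 4 the averaged hairpin difference was 0 ± 0.16, 0.20 ± 0.16 and 0.22 ± 0.17 (limma adjusted p = 0.998, 0.501 and 0.472). The hairpin call thus rested on probe 1. Its averaged value was 0.48 above that of probe 2 (exact permutation p = 0.02, adjusted over 20 probe differences 0.125).

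Probes 2 and 3 of Dsg2 were lower after TAC on the normalized scale. Both were dim, with uncorrected intensities of 145.4 to 218.1 and 115.3 to 184.6, beside array medians of 90.94 to 112.2. Before correction and scaling, the sham and TAC intensities overlapped at both probes with either hairpin. Probe 2 read 7.36, 6.96 and 7.35 in sham shControl against 6.62, 6.54 and 6.05 after TAC, and 7.17, 7.37 and 6.70 in sham shUhrf1 against 6.43, 6.91 and 6.29 after TAC. Probe 3 read 6.26, 6.39 and 6.91 against 6.13, 5.70 and 5.36 with shControl, and 6.92, 7.07 and 6.45 against 5.92, 5.97 and 5.63 with shUhrf1. The surgery groups did not overlap at probe 3 with either hairpin or at probe 2 with shControl, and they overlapped at probe 2 with shUhrf1. At probe 2 the TAC difference was -0.82 ± 0.22 with shControl (limma adjusted p = 0.0251) and -0.54 ± 0.22 with shUhrf1 (adjusted p = 0.18). At probe 3 it was -0.79 ± 0.23 and -0.97 ± 0.23 (adjusted p = 0.0324 in each). Of all tested probes, 7.77% were lower after TAC with shControl and 1.91% with shUhrf1. Averaged over hairpins the differences were -0.68 ± 0.16 and -0.88 ± 0.16 (adjusted p = 0.00822 and 0.00224), where 12.9% of probes were lower. With the mean of all its probes, Dsg2 passed as lower for TAC with shControl and averaged over hairpins, but not with shUhrf1. Median scaling, which moves the median response of all genes to 0.19 with shControl and 0.45 with shUhrf1, reduced the single-hairpin values to -0.48 and -0.44 with shControl and -0.55 at probe 3 with shUhrf1, none past the threshold.

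The single-hairpin calls of these Dsg2 probes were all lost with no filter on dim probes (adjusted p from 0.0731 to 0.0978), and that of probe 3 with shControl also in the authors' value table (-0.20, adjusted p = 0.0751). They also rested on single arrays. With shControl the fall at probe 2 was lost without sham array 1 or 3 or TAC array 3 (-0.75, -0.75 and -0.64), and at probe 3 without sham array 2 or 3 or TAC array 2 or 3 (values from -0.86 to -0.60). With shUhrf1 the fall at probe 3 was lost without sham array 1 or 2 or TAC array 1 or 3 (values from -1.01 to -0.84). Probe 4 was detected on 1 sham shControl and 2 sham shUhrf1 arrays and on no TAC array, and its TAC differences of -0.42 and -0.41 did not pass (limma adjusted p = 0.242 and 0.341). Probes 2 and 3 correlated at 0.87 over the 12 arrays, and probe 1 correlated with them at 0.34 and 0.44. The averaged TAC difference of probe 1 was 0.50 above that of probe 2 (exact permutation p = 0.025, adjusted over 20 probe differences 0.125) and 0.71 above that of probe 3 (exact p = 0.01, adjusted 0.1). Without background correction these gaps were 0.26 and 0.35. Which transcripts each probe matches was not analysed here.

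**Figure D3:**
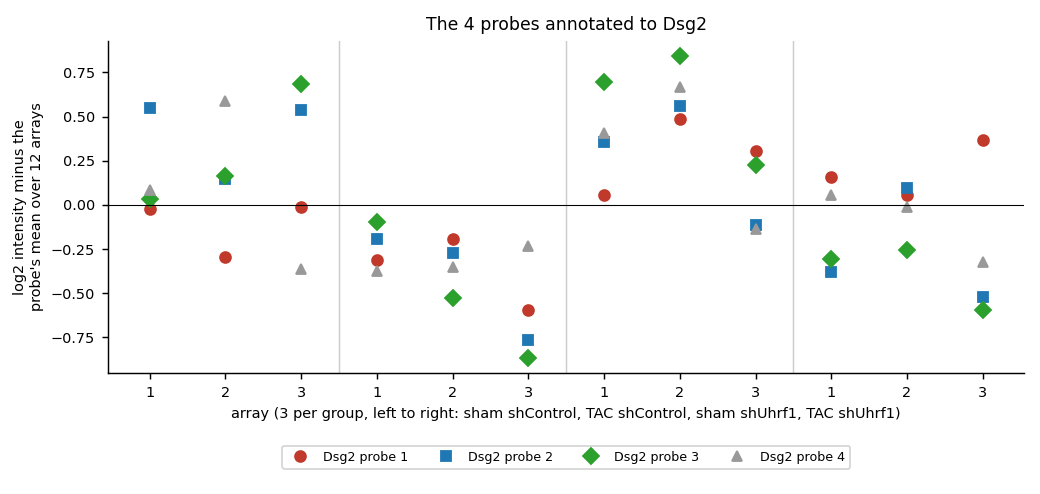
Log2 intensity of each of the 4 Dsg2 probes minus its own mean over the 12 arrays (y axis), for the 3 arrays of each group (x axis). Probes 2 and 3 lie at or below their means on all TAC arrays except array 2 of TAC shUhrf1 at probe 2, and probe 1 lies above its mean on all shUhrf1 arrays.

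Cdh2 (N-cadherin), the adherens junction cadherin of heart muscle, was near background. Its probe 1 (ILMN_2605503), detected on 9 of 12 arrays, read 4.45, 5.91 and 5.92 in sham shControl, 5.5, 5.05 and 5.35 in TAC shControl, 5.95, 6.27 and 5.67 in sham shUhrf1 and 5.48, 5.17 and 4.53 in TAC shUhrf1. The surgery groups overlapped with shControl, and with shUhrf1 all TAC arrays were below all sham arrays. The TAC difference was -0.13 ± 0.35 (limma adjusted p = 0.841) with shControl and -0.91 ± 0.35 (adjusted p = 0.154) with shUhrf1, and the difference between them was -0.78 ± 0.50 (adjusted p = 0.661). The shControl value was 0.12 without sham shControl array 3 and 0.14 with median scaling. Without sham shControl array 1, which read 4.45, Cdh2 gave -0.61 with shControl (adjusted p = 0.14), -0.91 with shUhrf1, which then passed (adjusted p = 0.0452), and -0.76 averaged over hairpins, which passed as well (adjusted p = 0.00946). Probe 2 (ILMN_1216390) was detected on 2 sham shControl and 1 TAC shControl array and on no shUhrf1 array. In sham it was at least 1.46-fold brighter with shControl than with shUhrf1, from group means of 5.77 and 4.79, which did not pass the test (adjusted p = 0.149). Probe 1 went the other way in that comparison, at 0.54 ± 0.35 (adjusted p = 0.529), and the probes correlated at 0.18 over the arrays. At probe 2 the TAC difference with shControl was -0.80 ± 0.26, without overlap and just short of the threshold (adjusted p = 0.0509). With shUhrf1 it was -0.21 ± 0.26 (adjusted p = 0.683). The hairpin difference of probe 2 averaged over both surgeries was -0.68 ± 0.18 (adjusted p = 0.0517). A fold given as at least a number sets the brighter group against the higher of the dim probe's own signal and the lowest detected signal of each array.

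The desmosomal genes Dsc2, the partner cadherin of Dsg2, and Jup, which binds the tails of both cadherins, stayed at background. Their normalized log2 intensities spanned 4.30 to 4.58 and 4.35 to 5.09 over all arrays. With no array above the detection limit, no fold is given, and the low signal of 1 probe does not show that the gene was silent.

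**Figure D4:**
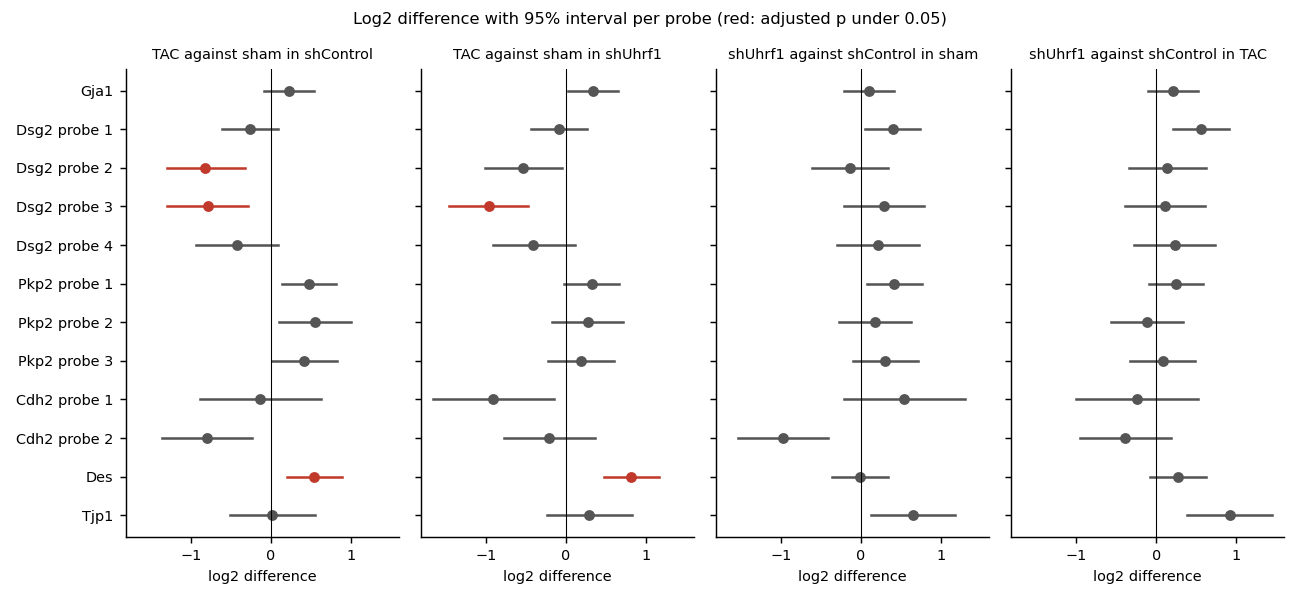
Log2 difference with its 95% interval (x axis) for each tested member probe (y axis) in the 4 comparisons of single groups, red where the adjusted p was under 0.05. Des is red in both TAC panels, Dsg2 probes 2 and 3 in the shControl panel and Dsg2 probe 3 in the shUhrf1 panel, and no probe is red in the hairpin panels.

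Counted by the probe that stands for each gene, 1 of 6 tested member genes passed in TAC against sham with shControl, where 18.9% of all tested genes passed, and 1 of 6 with shUhrf1, where 5.55% did. In both cases the gene was Des, and it was higher. The median log2 difference of the 6 was 0.12 and 0.30, against -0.04 and 0.01 over all genes. None of the 6 passed for the hairpin in sham (all genes 0.0457%, smallest member adjusted p = 0.258) or after TAC (2.89%, smallest 0.0639), and 0 passed in the difference between the TAC responses (all genes 0%, smallest 0.661). At an unadjusted p under 0.05 the counts in these 3 were 3, 2 and 0 members, beside 1154, 1692 and 866 of 8746 genes. In the averaged comparisons 2 of 6 passed for TAC (Pkp2 and Des, both higher), where 27.2% of all genes passed and 15.5% were higher, and 2 of 6 for the hairpin (Dsg2 and Tjp1, both higher), where 4.38% passed and 3.1% were higher. The other probes of Dsg2 did not pass for the hairpin. Leaving out sham shUhrf1 array 2 gave 0 of 6 for TAC with shUhrf1 and 0 of 6 for the averaged hairpin comparison, while the calls over all genes went from 485 to 117 and from 383 to 214. In the difference between the TAC responses, 0 members and 102 genes passed without that array. Leaving out TAC shUhrf1 array 1 or 3 also gave 0 of 6 for TAC with shUhrf1, with 151 and 113 genes called. For the averaged hairpin comparison, 0 of 6 also passed without sham shControl array 2 or 3 or TAC shUhrf1 array 3. With 6 genes, chosen with earlier results of these data known, these shares are coarse, and the comparisons share arrays.

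Each member was also set against the mean of the 11 cardiomyocyte markers on the same array, on background-corrected values not normalized between arrays. This alternative was added after the data were seen. On that scale Pkp2 was -2.44, -2.43 and -2.65 in sham shControl, -1.84, -2.40 and -1.61 in TAC shControl, -2.28, -2.40 and -2.28 in sham shUhrf1 and -1.57, -1.78 and -1.46 in TAC shUhrf1 (probe 1). The TAC arrays were above the sham arrays with either hairpin. The averaged TAC difference relative to the markers was 0.64, 0.66 and 0.64 at the 3 Pkp2 probes, each with an exact permutation p of 0.005, the smallest that 400 arrangements within hairpins allow. Des gave 0.77 (exact p = 0.005), Gja1 0.41 (exact p = 0.015) and Dsg2 probe 3 -0.46 (exact p = 0.02). Dsg2 probe 2 gave -0.24 (exact p = 0.115) and probe 1 0.15 (exact p = 0.39). Tjp1 gave 0.60 for TAC (exact p = 0.015), where the quantile-normalized value was 0.16, and 0.68 for the hairpin (exact p = 0.02). In all 24 such values were tested, and these p are not adjusted for their number. For the hairpin, Dsg2 probe 1 gave 0.39 (exact p = 0.02). Cdh2 probe 2, detected on no shUhrf1 array, went the other way at -0.84 (exact p = 0.005). Of the 11 reference markers, Ryr2 and Pln themselves passed as higher in the averaged hairpin comparison (0.46 and 0.64, limma adjusted p = 0.019 and 0.0123). In the averaged TAC comparison Tnni3 passed as lower (-0.36, limma adjusted p = 0.0369), which raises values set against the markers. The other 10 did not pass there, and the median of the 11 was -0.02. The median over all 8746 genes on this scale was 0.35 for TAC and -0.09 for the hairpin, so the Gja1 value lay near that of a typical gene. The exact tests are of no difference and do not set a member against that median. For Des, Pkp2, Tjp1 and Gja1, a small p for TAC on this scale therefore includes the shift of a typical gene.

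Several members are also made by other heart cells: Gja1 and Cdh2 by fibroblasts, Des by smooth muscle cells and pericytes, and Tjp1 by endothelial cells. Summed over the tested markers on the linear normalized scale, fibroblast markers spanned 2117 to 3570 in sham shControl, 8128 to 11010 in TAC shControl, 1696 to 5347 in sham shUhrf1 and 5808 to 10130 in TAC shUhrf1. Endothelial markers spanned 2045 to 2619, 4813 to 9495, 1290 to 4161 and 2354 to 3595 in the same order. Smooth muscle and pericyte markers spanned 3235 to 6913, 3763 to 6775, 2222 to 4522 and 3102 to 4550, with Tagln and Cnn1 below the detection filter. Cardiomyocyte markers spanned 191700 to 204800, 202100 to 204100, 210800 to 215500 and 176000 to 205700. The part of these cells in the member values was not tested. In bulk RNA a change in the share of a cell type and a change in RNA per cell cannot be told apart.

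Over the 12 arrays Gja1, Pkp2 and Des varied together, with Pearson correlations of 0.77 for Gja1 and Pkp2 and 0.80 for Des with each of the others. Tjp1 correlated with Dsg2 at 0.65 and with Gja1 at 0.64, and Dsg2 with Pkp2 at 0.09. The points share the study's 4 groups, so these are descriptions without a test. Among 6663 genes detected on all arrays, those most like Des were Tpd52 (0.973), Cdv3 (0.957) and Myh7 (0.950), the slow myosin heavy chain. Those most like Gja1 were G3bp2 (0.941), Vcl (0.935), which encodes vinculin of the adherens junction, and Dync1i2 (0.929). Pkp2 was most like Micu2 (0.950), Rab34 (0.944) and Bloc1s6 (0.943), and Dsg2 like Qk (0.919), Cuedc2 (0.917) and Cog2 (0.907). Tjp1 was most like Zbtb43 (0.946), Kpna3 (0.942) and Chmp5 (0.941), and Cdh2 like Cop1 (0.939), St6galnac6 (0.918) and Pibf1 (0.916).

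A list of 42 further genes of the disc or linked to it, chosen like the members with earlier results known, gave 27 tested genes. After TAC with shControl 10 of the 27 were higher and 1 was lower, beside 11.4% and 7.47% of all genes, and with shUhrf1 4 were higher and 0 lower, beside 3.96% and 1.59%. The median log2 difference was 0.34 and 0.14. Under scaling to probes detected on all arrays the higher genes of the list numbered 7 and 3, and under median scaling 9 and 10. Over all genes the higher calls were 1001 and 346 in the reported fit, 923 and 282 under the former scaling and 1200 and 2005 under median scaling. The 10 higher with shControl include Vim, Nes, Lmna, Tmem43 and Gja4, which are not particular to the disc. The part of other heart cells in these counts was not tested. Nes was detected on no sham array, and 7 genes were higher and 1 lower when probes had to be detected on all 12 arrays. The 4 with shUhrf1 became 2 without TAC shUhrf1 array 1 or 3, and 2 with the mean of all probes of a gene. No gene of the 27 passed in the separate hairpin comparisons or in the difference between the TAC responses in the reported fit. For the hairpin after TAC, 2 were lower with an offset of 50 and under scaling to probes detected on all arrays. The same number was lower without sham shUhrf1 array 2 or TAC shControl array 1. Without TAC shControl array 1, 2 were also lower in the averaged hairpin comparison.

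Of the list, Xirp2, Synm, Nrap and Tmem43 passed with both hairpins, each higher. Xirp2, an actin-binding protein of the disc, read 11.49, 11.48 and 11.39 in sham shControl and 12.96, 12.46 and 13.13 after TAC, with no overlap. Its difference was 1.4 ± 0.18 with shControl and 1.32 ± 0.18 with shUhrf1 (limma adjusted p = 0.000446 and 0.0021). Synm (synemin), a partner filament of desmin, gave 1.26 ± 0.20 and 1.06 ± 0.20 (adjusted p = 0.00149 and 0.0123). Nrap, which ties actin to the adherens junction, gave 0.62 ± 0.15 and 0.67 ± 0.15 (adjusted p = 0.0127 and 0.0234), and under scaling to probes detected on all arrays its values of 0.28 and 0.54 did not pass. Tmem43, a nuclear membrane protein mutated in arrhythmogenic cardiomyopathy, gave 0.66 ± 0.13 and 0.72 ± 0.13 (adjusted p = 0.00413 and 0.00842).

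Of the connexins on the list, Gja4 and Gjc1 passed with shControl, both higher. Gja4 (Cx37), an endothelial connexin, read 5.81, 6.23 and 5.80 in sham shControl and 6.53, 7.22 and 7.52 after TAC, a difference of 1.14 ± 0.27 (limma adjusted p = 0.0117). With shUhrf1 its difference was 0.25 ± 0.27 (adjusted p = 0.613). Gjc1 (Cx45) gave 1.02 ± 0.22 (adjusted p = 0.00841) and 0.44 ± 0.22 (adjusted p = 0.267). Gja5 (Cx40) was not detected on any sham array and was detected on all TAC arrays of both hairpins, and its TAC difference did not pass with either hairpin alone (adjusted p = 0.0949 and 0.278) but did when averaged (adjusted p = 0.0326). Vim (vimentin), an intermediate filament of fibroblasts and endothelial cells, gave 2.29 ± 0.39 with shControl (adjusted p = 0.00256) and 0.79 ± 0.39 with shUhrf1 (adjusted p = 0.263), and fibroblast and endothelial markers moved with it, whose part was not tested. For none of these genes did the difference between the responses pass in the fit to all 12 arrays. Pkp4 and Lmna (lamin A/C) were higher with shControl at 0.60 ± 0.13 and 0.59 ± 0.13 (adjusted p = 0.00816 and 0.0105), and both fell to 0.33, not past the threshold, under scaling to probes detected on all arrays. Nes (nestin) was detected on no sham array, on 3 TAC shControl arrays and on 2 TAC shUhrf1 arrays. Its differences from background were 1.65 with shControl and 0.71 with shUhrf1.

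Ank2 (ankyrin B), a membrane adaptor for ion transporters, was the 1 gene of the list that fell. It read 8.63, 8.53 and 8.94 in sham shControl and 7.69, 7.81 and 7.82 after TAC, with no overlap, a difference of -0.92 ± 0.19 (limma adjusted p = 0.00686). With median scaling it was -0.66 (adjusted p = 0.131). With shUhrf1 the difference was -0.55 ± 0.19 (adjusted p = 0.122). Ctnnb1 (beta-catenin), which links cadherins to the actin cytoskeleton through alpha-catenin, was the only gene of the list to pass for the hairpin averaged over both surgeries, at 0.54 ± 0.11 (adjusted p = 0.0168), beside 0.63 ± 0.15 in sham and 0.46 ± 0.15 after TAC, neither of which passed alone (adjusted p = 0.123 and 0.124). With the mean of all probes of a gene it did not pass. The alpha-catenin Ctnna1 and p120-catenin Ctnnd1 did not pass in either TAC comparison.

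**Figure D5:**
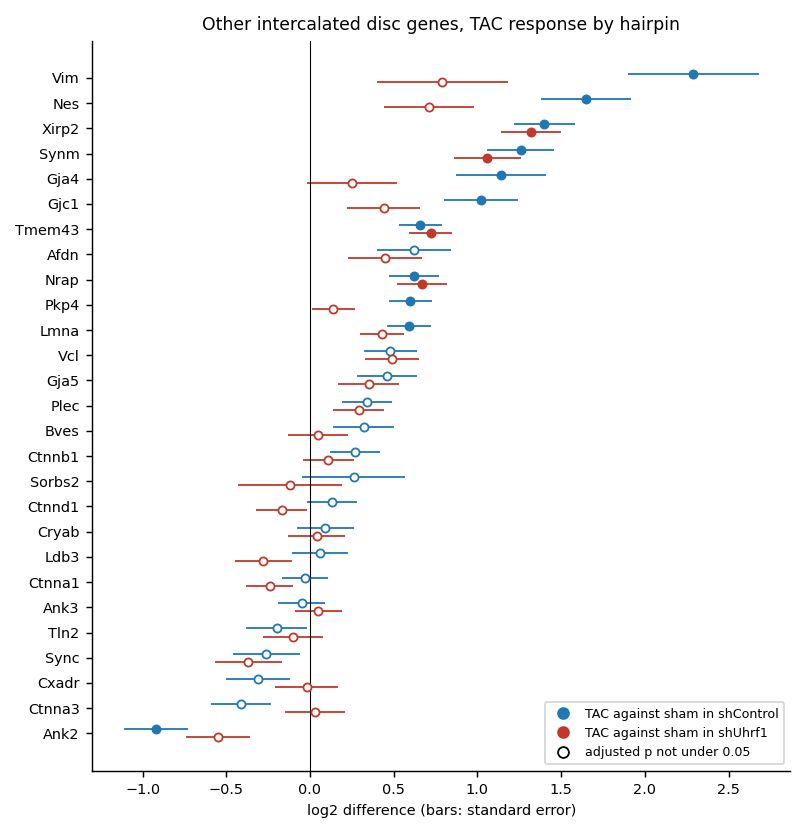
TAC against sham log2 difference with its standard error (x axis) for the 27 tested genes of the further list (y axis). Blue is with shControl and red with shUhrf1, filled where the adjusted p was under 0.05. Ank2 is the only filled point below 0. Nes and Gja5 were not detected on any sham array, so their plotted differences are from background.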

How the data were processed

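Biotin-labelled RNA was hybridised to Illumina mouse bead arrays, per the labels' protocols. The deposited non-normalized table holds, for each array, an intensity and a detection p-value for every probe, per the file headers. The authors' value table, on a log2 scale, was used as an alternative. The submitters' processing notes name lumi without settings. Intensities were background-corrected, offset by 16, quantile-normalized and put on a log2 scale with neqc of limma 3.58.1 (R 4.3.3). One limma model with a mean per group was fitted to all 12 arrays and every tested probe. p-values were adjusted by the Benjamini-Hochberg method over all 15118 tested probes, with a threshold of 0.05. Each gene was represented by its tested probe with the highest mean. Members and lists were chosen with earlier results of these data known. Of 45281 probes, 34885 had 1 gene symbol, 18 several and 10378 are unnamed here. By rule the text names the members, Uhrf1 and, per comparison, up to 4 passing genes of the further list with the smallest p. It also names, for each member, the 3 genes, detected on all 12 arrays, of highest correlation. The connexins, Ank2, Pkp4, Lmna, Ctnna1, Ctnnd1 and the averaged comparisons were chosen after their values were seen. The fit was tested on simulated data. Permutation tests are exact and two-sided. Slide and scan batches were not analysed here, and the number of arrays limits the precision.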

Additional observations from a re-analysis of the deposited data

How the results depend on the processing

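Alternatives were other background corrections, scalings, filters, probe summaries and array sets. Median scaling moved the median TAC response of all genes from -0.04 to 0.19 with shControl and from 0.01 to 0.45 with shUhrf1. For TAC in shControl, where 1 member had passed, 0 passed with median scaling, scaling to probes detected on all arrays, and no filter on dim probes, and 2 with no background correction, an offset of 50, the authors' value table, probes detected on all 12 arrays, array weights and the mean of all probes of a gene. The gene added was Dsg2, as lower, with the mean of all probes, and Pkp2 in the others. For TAC in shUhrf1 median scaling gave 3, where 2018 of 8746 genes passed against 485 in the reported fit. For the hairpin after TAC, counts rose from 0 to 2 with median scaling and to 1 with no background correction or an offset of 50. For averaged TAC, 2 became 1 with scaling to probes detected on all arrays, 3 (adding Gja1) with no background correction, an offset of 50, the authors' table and probes detected on all 12 arrays, and 4 (adding Gja1 and, as lower, Dsg2) with the mean of all probes. For the averaged hairpin, 2 became 1 with that scaling, the authors' table, probes detected on all arrays, the mean of all probes and the replicate block, 3 (adding Pkp2) with no background correction, and 0 with no filter. Without 1 array the counts ran from 0 to 2 (TAC, either hairpin), 0 to 0 (hairpin in sham, and difference between responses), 0 to 1 (hairpin after TAC), 1 to 3 (averaged TAC) and 0 to 2 (averaged hairpin). Replicate numbers are not said to pair arrays: same-numbered deviations correlated at a median of 0.003 over 18 pairs (4 above 0.1). With the replicate as a block, Des kept its calls (adjusted p = 0.0411 and 0.0204), and the averaged Dsg2 hairpin call was lost (0.0552).

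The sign of values that had not passed turned as follows. Median scaling gave 0.38 for Dsg2 TAC in shUhrf1 and 0.11 averaged, 0.14 for Cdh2 TAC in shControl, -0.05 for Gja1 with the hairpin in sham, 0.30 for Pkp2 probe 2 with the hairpin after TAC, and 0.30, 0.17 and 0.14 for the difference between responses at Pkp2 probes 1 to 3. Scaling to probes detected on all arrays gave -0.21 for Gja1 TAC in shControl, -0.02 averaged and -0.12 with the hairpin in sham, -0.02 and -0.05 for Dsg2 probes 3 and 4 with the hairpin after TAC, -0.21 for the difference at Dsg2 probe 4, 0.07 for that at Pkp2 and -0.03 for Cdh2 with the averaged hairpin. Array weights gave -0.05 for the difference at Dsg2 probe 4 and 0.01 for Des with the hairpin in sham. The mean of probes gave Cdh2 -0.22 (hairpin in sham) and -0.27 (averaged).

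Without 1 array, ranges crossed 0 for these. In the TAC comparisons they were Cdh2 in shControl (-0.61 to 0.12), Tjp1 in shControl (-0.15 to 0.20) and Dsg2 in shUhrf1 (-0.20 to 0.01). With the hairpin in sham they were Des (-0.05 to 0.02), Dsg2 probe 2 (-0.28 to 0.05) and probe 4 (-0.02 to 0.45). After TAC they were Cdh2 (-0.45 to 0.02), Dsg2 probe 2 (-0.04 to 0.27) and probe 3 (-0.07 to 0.31), and Pkp2 probe 2 (-0.36 to 0.11) and probe 3 (-0.10 to 0.26). Averaged over surgeries they were Cdh2 (-0.10 to 0.28) and Pkp2 probe 2 (-0.09 to 0.14). For the difference between responses they were Dsg2 probe 3 (-0.37 to 0.02) and probe 4 (-0.22 to 0.25). Signal near background limits Tjp1, Cdh2 and Dsg2 probe 4, and Dsg2 probes 2 and 3 were dim as well.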
